A study of Homo sapiens with 18 samples.

Results

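TIPARP, AHRR, CYP1B1, CYP1A2, ABCG2 and ALDH3A1 are feedback and detoxification targets of the aryl hydrocarbon receptor (AHR). They were chosen by name, for their place in the AHR pathway, with earlier results of these data known. They make up 6 of the 15529 genes that could be named on the arrays. Each was measured by 1 probe set, and all 6 were tested. Transcripts were measured on 18 microarrays of total RNA from U-87MG, an established human glioblastoma line, after 120 h of culture. Every culture carried a lentiviral expression vector, either pLX301 with the human IL4I1 cDNA or pLX301 alone as control vector, selected with puromycin. Every culture also carried a stable shERWOOD UltramiR hairpin, which was shAHR1 or shAHR2 against AHR, or the non-targeting shCtrl. The 6 groups of 3 arrays were therefore IL4I1 with shAHR1, IL4I1 with shAHR2, IL4I1 with shCtrl, control vector with shAHR1, control vector with shAHR2 and control vector with shCtrl. The labels call the 3 arrays of a group biological replicates. They do not say whether these came from separate infections or whether the lines were clonal, so the p-values measure the spread between these arrays. Each array averages over its culture, so more transcript per cell and more expressing cells cannot be told apart.

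AHR is a ligand-activated transcription factor of the basic helix-loop-helix PAS family. With a ligand bound it moves to the nucleus, pairs with ARNT and binds DNA elements with the core GCGTG, from which it induces enzymes that oxidise foreign and endogenous aromatic compounds. Several of its targets act back on it: AHRR competes for ARNT and for the same elements, and TIPARP (PARP7) attaches ADP-ribose to AHR and dampens its activity. IL4I1 is a secreted L-amino acid oxidase whose products from aromatic amino acids include AHR ligands. The design asks how far these targets respond to IL4I1 and how far that response changes when AHR is lowered.

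The transgene and the hairpins were checked first. IL4I1 averaged 12.85 ± 0.17, 12.90 ± 0.05 and 12.89 ± 0.07 on the log2 scale in IL4I1 cells with shAHR1, shAHR2 and shCtrl, against 6.09 ± 0.19, 6.10 ± 0.22 and 5.84 ± 0.58 in the matching control vector cells (SD, n = 3 each). AHR averaged 8.05 ± 0.11 with shAHR1 and 7.61 ± 0.14 with shAHR2, against 10.02 ± 0.27 with shCtrl, in IL4I1 cells. In control vector cells AHR averaged 7.86 ± 0.23 with shAHR1 and 7.91 ± 0.14 with shAHR2, against 10.14 ± 0.09 with shCtrl. AHR was thus 3.94 to 5.32-fold lower under the hairpins and was not removed. IL4I1 itself moved AHR by -0.11 ± 0.16 in shCtrl cells (limma, adjusted p = 0.77). Here and below, the value after ± for a log2 difference is its standard error from limma.

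Array medians lay between 6.46 and 6.53, and the correlation between arrays lay between 0.87 and 0.95. No arrays held identical values. Replicate 2 of control vector with shCtrl stood apart by 1 measure: its deviations from the gene medians had the widest interquartile range, 0.529, where the other arrays had 0.319 to 0.472. All 3 arrays of this group had a lower mean correlation with their own group (0.9191 to 0.9196) than the arrays of other groups (0.9323 or more). Calls that rest on this group are also given without replicate 2. Of 6 measured markers of glioma lines, VIM, CD44 and FN1 were bright on every array (lowest value 10.65). NES lay between 5.67 and 6.51, the astrocyte marker GFAP between 5.63 and 6.88 and the oligodendrocyte lineage factor OLIG2 between 4.77 and 6.65. NES, GFAP and OLIG2 thus lay around or below the median of all probe sets of 6.51. GFAP was lower with IL4I1 in shCtrl cells (-0.74 ± 0.20, adjusted p = 0.042) and ITGAM, a myeloid integrin, was higher (1.20 ± 0.30, adjusted p = 0.032), but neither passed without that array (GFAP -0.63 ± 0.22, adjusted p = 0.17; ITGAM 1.01 ± 0.33, adjusted p = 0.14). KRT19, an epithelial keratin, was called lower without it (-1.56 ± 0.27, adjusted p = 0.0093) and not with it (-0.88, adjusted p = 0.26). Over the 3 leukocyte markers measured of 6 listed (PTPRC, CD3E and ITGAM), the mean level per array was 6.34 to 6.80 in IL4I1 shCtrl cells, against 5.38 to 6.45 in control vector shCtrl cells. The part of these markers in the results was not tested.

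Promoter windows of the members are shown for the AHR core motif, to give the sequence context of these genes. RefSeq windows of 300 bases (GRCh38.p14, 250 bases before to 50 after a transcript start, written 5′ to 3′ on the gene's strand) were available for 4 of the 6 genes, 11 windows in all. Capitals mark GCGTG or, for the other strand, CACGC. No match overlaps another in the windows printed. The windows are TIPARP at chr3:156674340-156674639 (plus strand), AHRR at chr5:321464-321763 and at chr5:322360-322659 (plus strand), ABCG2 at chr4:88158810-88159109 (minus strand) and CYP1A2 at chr15:74748595-74748894 (plus strand).
TIPARP: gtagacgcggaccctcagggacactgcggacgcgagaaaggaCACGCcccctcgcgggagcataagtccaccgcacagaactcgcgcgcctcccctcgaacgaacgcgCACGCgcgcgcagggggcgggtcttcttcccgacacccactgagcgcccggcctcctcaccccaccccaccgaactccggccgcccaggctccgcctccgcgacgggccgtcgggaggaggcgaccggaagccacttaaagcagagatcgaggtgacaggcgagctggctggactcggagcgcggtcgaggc
AHRR, upstream start: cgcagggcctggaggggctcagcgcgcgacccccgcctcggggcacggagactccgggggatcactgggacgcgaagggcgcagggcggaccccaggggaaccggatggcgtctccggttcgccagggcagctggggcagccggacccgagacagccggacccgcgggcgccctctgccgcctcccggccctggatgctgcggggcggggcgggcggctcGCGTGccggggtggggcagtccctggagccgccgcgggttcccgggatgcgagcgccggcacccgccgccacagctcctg
AHRR, downstream start: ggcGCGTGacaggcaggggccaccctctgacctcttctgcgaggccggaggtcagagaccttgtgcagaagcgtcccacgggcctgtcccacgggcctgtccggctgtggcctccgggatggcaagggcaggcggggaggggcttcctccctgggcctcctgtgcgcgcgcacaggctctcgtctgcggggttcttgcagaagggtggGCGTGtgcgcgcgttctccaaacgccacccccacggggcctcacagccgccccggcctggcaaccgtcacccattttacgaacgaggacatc
ABCG2: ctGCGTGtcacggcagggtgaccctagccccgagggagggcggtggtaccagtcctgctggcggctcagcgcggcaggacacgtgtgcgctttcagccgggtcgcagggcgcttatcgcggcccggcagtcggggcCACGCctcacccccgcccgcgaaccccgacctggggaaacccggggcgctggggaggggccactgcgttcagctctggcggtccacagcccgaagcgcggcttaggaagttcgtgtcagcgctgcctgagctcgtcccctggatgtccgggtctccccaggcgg
CYP1A2: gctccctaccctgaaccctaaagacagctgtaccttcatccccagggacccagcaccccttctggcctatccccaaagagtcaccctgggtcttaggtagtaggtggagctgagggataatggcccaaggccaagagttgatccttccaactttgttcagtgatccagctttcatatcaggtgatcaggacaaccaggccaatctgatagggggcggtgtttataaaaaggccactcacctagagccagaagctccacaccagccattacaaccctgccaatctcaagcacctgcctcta
The TIPARP window holds the core 208 and 142 bases before the start. The downstream AHRR window holds it 247 and 42 bases before the start, and the upstream AHRR window 30 bases before it, there as the longer form TNGCGTG. In ABCG2 it stands 248 and 114 bases before the start. For each gene a window with as many matches as any of its windows is printed, with the upstream AHRR window added for the longer form. The other 2 TIPARP windows hold no match, and of the other 4 ABCG2 windows 2 hold none and 2 hold 2. CYP1A2 has a single window, with no match. Of all 35116 RefSeq windows of this length, 36.5% hold GCGTG on either strand, 12.7% hold it at least 2 times and 5.51% hold TNGCGTG on either strand, so a match is common and is given as a description only. CYP1B1 and ALDH3A1 are named without a window.

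TIPARP, the feedback mono-ADP-ribosyltransferase, was the member with the clearest response to IL4I1. Its log2 values were 7.21, 6.75 and 7.37 in IL4I1 shAHR1 cells, 7.95, 7.71 and 7.86 in IL4I1 shAHR2 cells and 9.42, 9.19 and 9.03 in IL4I1 shCtrl cells. With control vector they were 7.30, 6.98 and 7.23 with shAHR1, 7.49, 7.60 and 7.16 with shAHR2 and 7.72, 7.68 and 7.58 with shCtrl. All 3 IL4I1 shCtrl arrays stood above every other array, and the remaining 15 arrays lay within a band of overlapping neighbouring groups. With IL4I1, TIPARP rose 2.94-fold in shCtrl cells (1.55 ± 0.18 on the log2 scale, limma, adjusted p = 0.00018). Under shAHR1 the IL4I1 difference was -0.06 ± 0.18 (adjusted p = 0.94), and under shAHR2 it was 0.42 ± 0.18 (adjusted p = 0.34) with arrays that did not overlap. Read the other way, TIPARP fell in IL4I1 cells by 2.10 ± 0.18 with shAHR1 (adjusted p = 1.7e-05) and by 1.37 ± 0.18 with shAHR2 (adjusted p = 0.0014). In control vector cells the hairpin differences were smaller, at -0.49 ± 0.18 with shAHR1 (adjusted p = 0.29) and -0.24 ± 0.18 with shAHR2 (adjusted p = 0.69). The calls in IL4I1 cells and in shCtrl cells held when any 1 array was left out.

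AHRR, the repressor that competes for ARNT, rose with IL4I1 in every background and fell with shAHR1. Its values were 7.00, 7.05 and 7.24 in IL4I1 shAHR1 cells, 7.70, 7.77 and 7.92 in IL4I1 shAHR2 cells and 8.44, 8.35 and 7.95 in IL4I1 shCtrl cells. In control vector cells they were 6.04, 6.37 and 6.37 with shAHR1, 7.03, 7.09 and 6.81 with shAHR2 and 7.82, 7.47 and 7.32 with shCtrl. Under each hairpin the IL4I1 arrays stood above the control vector arrays with no overlap. AHRR rose with IL4I1 in all 3 backgrounds, 1.79-fold under shAHR1 (0.84 ± 0.17, adjusted p = 0.029), 1.76-fold under shAHR2 (0.81 ± 0.17, adjusted p = 0.042) and 1.63-fold under shCtrl (0.71 ± 0.17, adjusted p = 0.029). With shAHR1 it fell by 1.15 ± 0.17 in IL4I1 cells (adjusted p = 0.0026) and by 1.27 ± 0.17 in control vector cells (adjusted p = 0.0033). With shAHR2 the differences were -0.45 ± 0.17 in IL4I1 cells (adjusted p = 0.27) and -0.56 ± 0.17 in control vector cells (adjusted p = 0.17), again with arrays that did not overlap. The fall with shAHR1 held without any 1 array, whereas the rise with IL4I1 in shCtrl cells kept its call in 2 of 6 such fits, and under shAHR1 and shAHR2 in 1 of 6 each.

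**Figure D1:**
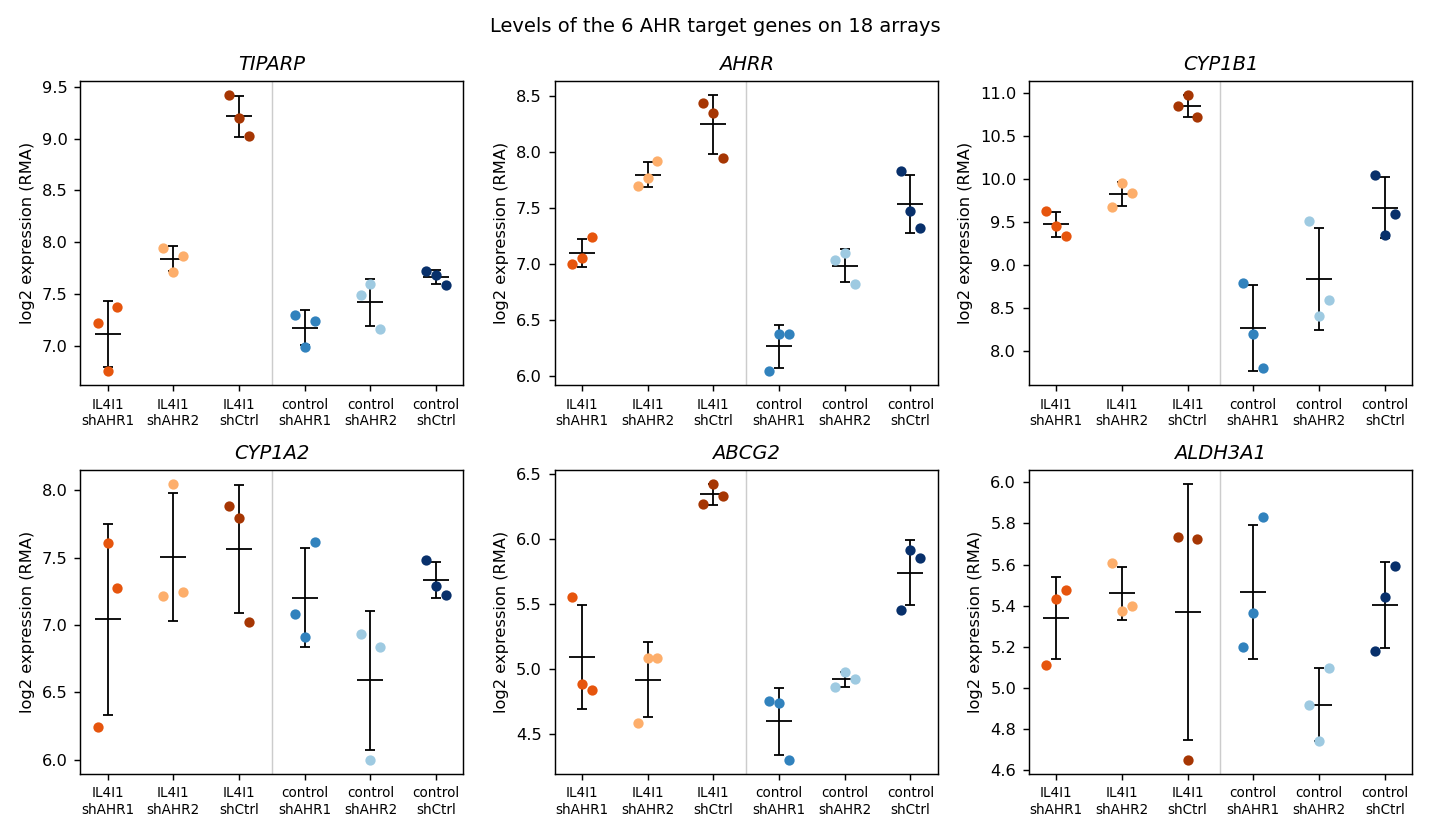
Log2 expression (RMA) of the 6 genes, a panel each with its own vertical axis. Points are single arrays, the horizontal bars and whiskers are the mean and SD of 3 arrays, IL4I1 groups are left of the grey line and control vector groups right of it. IL4I1 with shCtrl has the highest mean for every gene except ALDH3A1. Its arrays lie above all others for TIPARP, AHRR, CYP1B1 and ABCG2, and overlap other groups for CYP1A2.

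CYP1B1, a cytochrome P450 that oxidises polycyclic hydrocarbons and oestrogens, rose with IL4I1 under shAHR1 and under shCtrl and fell with shAHR1. Its values were 9.63, 9.45 and 9.34 in IL4I1 shAHR1 cells, 9.68, 9.96 and 9.83 in IL4I1 shAHR2 cells and 10.85, 10.97 and 10.72 in IL4I1 shCtrl cells. With the control vector the values were 8.80, 8.20 and 7.81 with shAHR1, 9.51, 8.41 and 8.59 with shAHR2 and 10.04, 9.35 and 9.60 with shCtrl. The IL4I1 shCtrl arrays stood above all others, IL4I1 arrays stood above control vector arrays under each hairpin, and the control vector groups were the more spread (SD 0.50, 0.59 and 0.35 with shAHR1, shAHR2 and shCtrl). CYP1B1 rose with IL4I1 by 1.20 ± 0.28 under shAHR1 (adjusted p = 0.041) and by 1.18 ± 0.28, or 2.27-fold, under shCtrl (adjusted p = 0.023). Under shAHR2 the difference of 0.98 ± 0.28 did not pass (adjusted p = 0.12). With shAHR1 it fell by 1.37 ± 0.28 in IL4I1 cells (adjusted p = 0.019) and by 1.40 ± 0.28 in control vector cells (adjusted p = 0.033). The shAHR2 differences, -1.02 ± 0.28 in IL4I1 cells (adjusted p = 0.088) and -0.83 ± 0.28 in control vector cells (adjusted p = 0.21), did not pass. The difference in IL4I1 cells passed in 4 of 8 other settings, with adjusted p between 0.041 and 0.099 over the 8. When 1 array was left out, the rise with IL4I1 kept its call in 1 of 6 fits under shAHR1 and in 2 of 6 under shCtrl. The fall with shAHR1 kept its call in 2 of 6 fits in IL4I1 cells and in 1 of 6 in control vector cells, where array weights also ended it (adjusted p = 0.08).

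CYP1A2, best known as a liver enzyme that metabolises caffeine and arylamines, passed no test. Its values were 6.24, 7.61 and 7.28 in IL4I1 shAHR1 cells, 7.22, 8.05 and 7.24 in IL4I1 shAHR2 cells and 7.88, 7.79 and 7.02 in IL4I1 shCtrl cells. With the control vector the values were 7.08, 6.91 and 7.62 with shAHR1, 6.93, 5.998 and 6.83 with shAHR2 and 7.49, 7.29 and 7.22 with shCtrl. Every neighbouring pair of groups overlapped, and the spread within groups (pooled SD 0.48) was the widest of the 6 members. The IL4I1 difference in shCtrl cells was 0.23, with a 95% interval of -0.52 to 0.98. Such an interval covers no change and also a rise as large as that of AHRR. The IL4I1 difference under shAHR2, at 0.92 ± 0.35, came with groups that did not overlap but did not pass (adjusted p = 0.28).

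ABCG2, an efflux transporter of the ATP-binding cassette family that carries drugs and dietary carcinogens out of cells, responded to the hairpins. Its values were 5.56, 4.89 and 4.84 in IL4I1 shAHR1 cells, 4.58, 5.09 and 5.08 in IL4I1 shAHR2 cells and 6.27, 6.42 and 6.33 in IL4I1 shCtrl cells. The control vector cells had 4.75, 4.73 and 4.30 with shAHR1, 4.86, 4.98 and 4.92 with shAHR2 and 5.45, 5.91 and 5.85 with shCtrl. Within each vector all 3 shCtrl arrays stood above all AHR hairpin arrays, and IL4I1 with shCtrl stood above every other group. In IL4I1 cells ABCG2 fell 2.37-fold with shAHR1 (-1.25 ± 0.21, adjusted p = 0.0061) and 2.68-fold with shAHR2 (-1.42 ± 0.21, adjusted p = 0.0027). In control vector cells it fell 2.21-fold with shAHR1 (-1.14 ± 0.21, adjusted p = 0.021), and the difference with shAHR2 was -0.82 ± 0.21 (adjusted p = 0.081). No IL4I1 difference passed the test: they were 0.50 ± 0.21 under shAHR1 (adjusted p = 0.29), 0.00 ± 0.21 under shAHR2 (adjusted p = 1) and 0.60 ± 0.21 under shCtrl (adjusted p = 0.11). All ABCG2 values lay below the median of all probe sets, where array fold changes can be compressed. The calls in IL4I1 cells held without any 1 array, and the call in control vector cells held in 2 of 6 such fits and ended with trend and robust settings (adjusted p = 0.063).

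ALDH3A1, an aldehyde dehydrogenase that is a classical AHR target in other tissues, passed no test. Its values were 5.11, 5.43 and 5.48 in IL4I1 shAHR1 cells, 5.61, 5.38 and 5.40 in IL4I1 shAHR2 cells and 5.74, 4.65 and 5.73 in IL4I1 shCtrl cells. The control vector cells had 5.20, 5.37 and 5.83 with shAHR1, 4.92, 4.74 and 5.10 with shAHR2 and 5.18, 5.44 and 5.59 with shCtrl. The order of groups followed neither IL4I1 nor the AHR hairpins, and control vector with shAHR2 was the lowest. Its IL4I1 difference in shCtrl cells was -0.03, with a 95% interval of -0.57 to 0.50, which leaves out a change as large as that of TIPARP or CYP1B1. All its values lay below the median of all probe sets.

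Counted over the 6 genes, IL4I1 gave 2 higher under shAHR1 (AHRR and CYP1B1) where 0.56% of all genes were called higher, 1 under shAHR2 (AHRR) where 0.335% were, and 3 under shCtrl (TIPARP, AHRR and CYP1B1) where 2.02% were. No member was called lower with IL4I1. In IL4I1 cells, shAHR1 lowered 4 (TIPARP, AHRR, CYP1B1 and ABCG2) against 0.573% of all genes, and shAHR2 lowered 2 (TIPARP and ABCG2) against 0.489%. In control vector cells, shAHR1 lowered 3 (AHRR, CYP1B1 and ABCG2) against 0.109% of all genes, and shAHR2 lowered none against 0.264%. With shAHR2 there, 3 members had an unadjusted p under 0.05, as did 11.1% of all genes. Groups whose arrays did not overlap were more common. With IL4I1 this held for 3 members under shAHR1, 5 under shAHR2 and 4 under shCtrl, against 18.1%, 18.8% and 20.3% of all genes. For each hairpin against shCtrl it held for 4 members, against 18.1% (shAHR1) and 18.8% (shAHR2) of all genes in IL4I1 cells and 14.1% and 14.2% in control vector cells. The hairpin comparisons of a vector share the shCtrl arrays of that vector, and each IL4I1 comparison shares its arrays with the hairpin comparisons. Without replicate 2 of control vector with shCtrl, the count for IL4I1 in shCtrl cells was 1 (TIPARP, 1.56 ± 0.20, adjusted p = 0.0015), with AHRR at 0.68 ± 0.20 (adjusted p = 0.1) and CYP1B1 at 1.03 ± 0.30 (adjusted p = 0.11). The count for shAHR1 in control vector cells was then 1 (AHRR, -1.31 ± 0.20, adjusted p = 0.016), with CYP1B1 at -1.55 ± 0.30 (adjusted p = 0.059) and ABCG2 at -1.06 ± 0.23 (adjusted p = 0.098). Without that replicate, 1.63% of all genes were called in either direction for IL4I1 in shCtrl cells, against 4.58% with it. For shAHR1 in control vector cells the shares were 0.213% and 0.406%. With the compared groups fitted alone, the AHRR and CYP1B1 rises with IL4I1 lost their call in every background where they had it, as did all 3 falls with shAHR1 in control vector cells and the AHRR and ABCG2 falls with shAHR1 in IL4I1 cells. TIPARP kept its calls there.

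**Figure D2:**
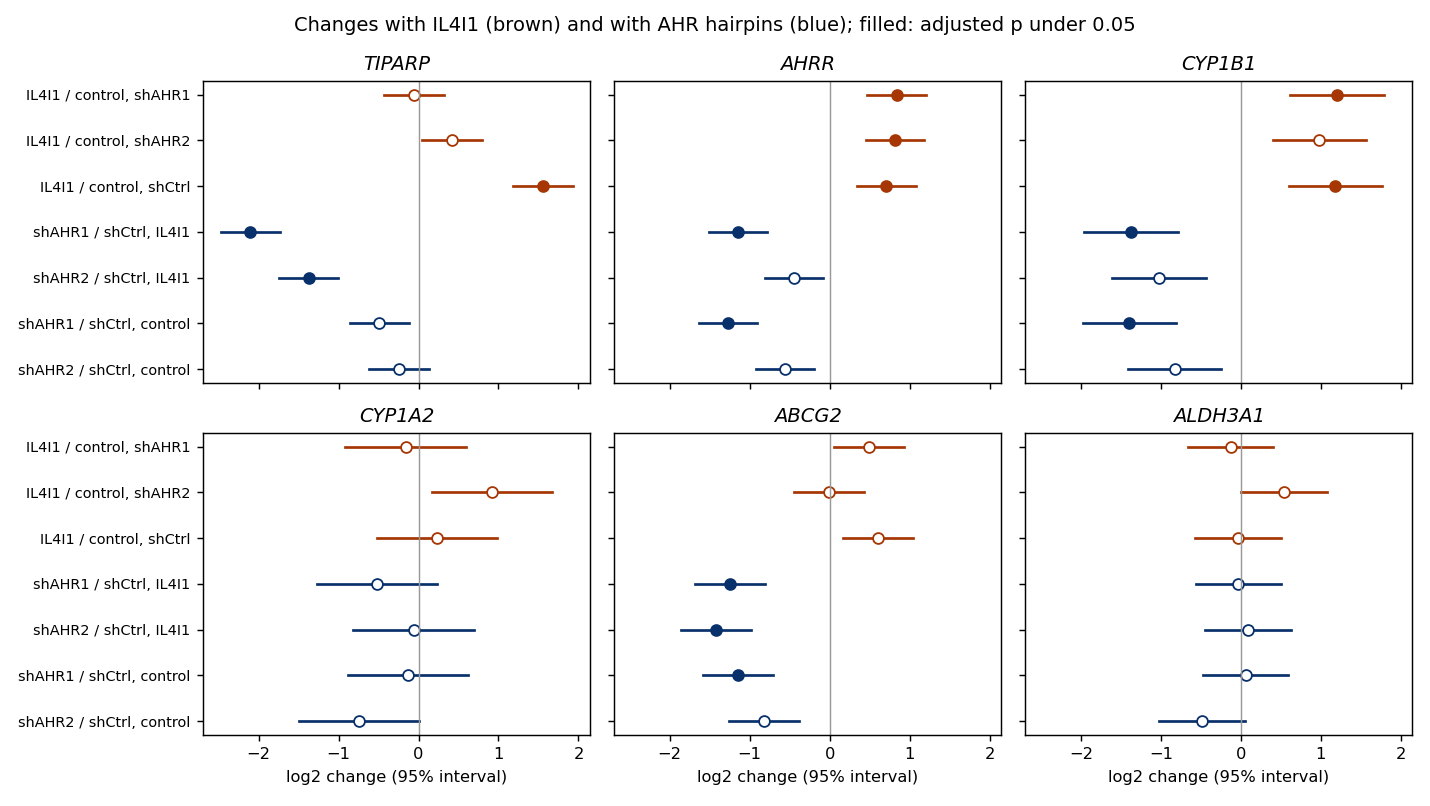
Log2 change of each gene in 7 comparisons with its 95% interval from limma, a panel a gene. Brown marks are IL4I1 over control vector under each hairpin, blue marks are each AHR hairpin over shCtrl in IL4I1 and in control vector cells, and filled marks passed an adjusted p of 0.05. The IL4I1 mark of TIPARP is filled under shCtrl alone, that of CYP1B1 under shAHR1 and shCtrl, and that of AHRR under all 3 hairpins. The IL4I1 intervals of AHRR and CYP1B1 lie above 0 under all 3 hairpins, and that of TIPARP under shAHR2 and shCtrl.

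The difference of the IL4I1 log2 change between hairpins was tested next. AHR was lowered and not removed, so this asks whether the fold change differed under knockdown and not whether it needed AHR. For TIPARP the change with the mean of both AHR hairpins was smaller than that with shCtrl by 1.37 on the log2 scale (-1.37 ± 0.22, 95% interval -1.83 to -0.92, limma, adjusted p = 0.048). It was 1 of 3 genes called in this term, or 0.0193% of all genes, and had rank 3 by p. Taken singly, the terms were -1.61 ± 0.25 for shAHR1 (adjusted p = 0.077, the lowest p of 15529 genes) and -1.13 ± 0.25 for shAHR2 (adjusted p = 0.64). The size of the mean term lay between -1.47 and -1.27 whichever array was left out, but its call held in 3 of 18 such fits, and without replicate 2 of control vector with shCtrl it was -1.38 ± 0.24 (adjusted p = 0.11). Array weights and a test of all probe sets also ended the call, with adjusted p up to 0.066.

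No other member was called in this term. The mean term was 0.12 for AHRR, with a 95% interval of -0.33 to 0.56, and -0.09 for CYP1B1, with an interval of -0.80 to 0.63. Neither interval overlaps that of TIPARP (-1.83 to -0.92). The IL4I1 rises in shCtrl cells, 0.71 for AHRR and 1.18 for CYP1B1, had wide intervals of 0.34 to 1.07 and 0.60 to 1.77. Each rise is also part of its own term, so the terms cannot be read against it. Whether these rises need AHR was not tested. For ABCG2 the term was -0.36 (-0.89 to 0.18), for CYP1A2 0.15 (-0.78 to 1.07) and for ALDH3A1 0.24 (-0.41 to 0.89), which are too wide to separate none from a moderate difference. Taken singly, the ABCG2 terms were -0.11 ± 0.29 for shAHR1 and -0.61 ± 0.29 for shAHR2, and neither was called. All these terms are differences of log2 changes, so equal terms mean equal fold changes and not equal gains in signal.

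**Figure D3:**
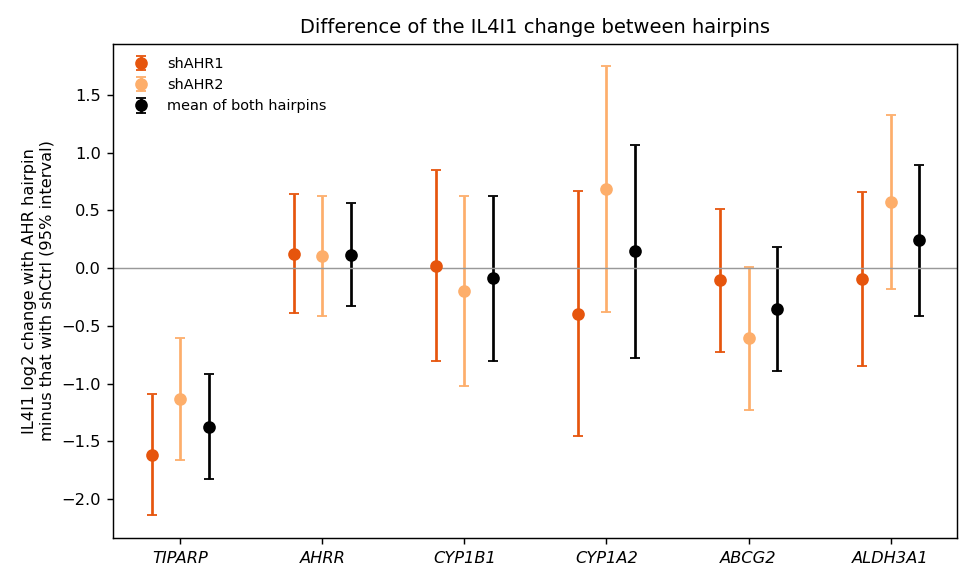
IL4I1 log2 change with an AHR hairpin minus that with shCtrl, for each gene, with 95% intervals from limma. Dark orange is shAHR1, light orange shAHR2 and black the mean of both. The TIPARP intervals lie below 0, and those of AHRR and CYP1B1 lie on both sides of it.

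The level reached with IL4I1 under an AHR hairpin was then set against the starting level of control vector with shCtrl. With shAHR1 no member passed in limma, where 4.53% of all genes did. The 3 members TIPARP, AHRR and ABCG2 had an unadjusted p under 0.05, as did 18.2% of all genes. TIPARP was -0.55 ± 0.18 (adjusted p = 0.093), AHRR -0.44 ± 0.17 (adjusted p = 0.17), CYP1B1 -0.19 ± 0.28 (adjusted p = 0.77) and ABCG2 -0.64 ± 0.21 (adjusted p = 0.093). With shAHR2, 1 member was lower, where 1.19% of all genes were: ABCG2 fell by 0.82 ± 0.21 (adjusted p = 0.039). TIPARP was 0.18 ± 0.18 (adjusted p = 0.66), AHRR 0.26 ± 0.17 (adjusted p = 0.47) and CYP1B1 0.16 ± 0.28 (adjusted p = 0.82). CYP1B1 and AHRR thus stood near the starting level with IL4I1 and shAHR2 together, with intervals of -0.42 to 0.74 and -0.11 to 0.62. The ABCG2 call held in 1 of 6 fits that left out an array, and without replicate 2 of control vector with shCtrl the difference was -0.73 ± 0.23 (adjusted p = 0.15). It also ended with trend and robust settings and with the compared groups fitted alone.

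Both hairpins lowered AHR, and the members were compared between them as well. AHRR was lower with shAHR1 than with shAHR2 by 0.70 ± 0.17 in IL4I1 cells (adjusted p = 0.22) and by 0.72 ± 0.17 in control vector cells (adjusted p = 0.25), with no overlap of arrays in either. TIPARP differed by -0.73 ± 0.18 in IL4I1 cells (adjusted p = 0.22) and by -0.25 ± 0.18 in control vector cells (adjusted p = 0.85). No gene passed in either comparison (0.0% of all genes), while 1131 genes in IL4I1 cells and 1070 in control vector cells had an unadjusted p under 0.05, 2 of the 6 members in each. The groups of 3 members did not overlap in IL4I1 cells and of 3 in control vector cells, against 14.5% and 12.9% of all genes. AHR itself was at 8.05 with shAHR1 against 7.61 with shAHR2 in IL4I1 cells, and at 7.86 against 7.91 in control vector cells.

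Across all 18 arrays TIPARP, AHRR, CYP1B1 and ABCG2 correlated with each other more closely than with CYP1A2 or ALDH3A1. Pearson's r was 0.89 between AHRR and CYP1B1, 0.81 between TIPARP and AHRR, 0.79 between TIPARP and CYP1B1, 0.78 between CYP1B1 and ABCG2, 0.77 between TIPARP and ABCG2 and 0.71 between AHRR and ABCG2. Once group means were taken out, these became 0.04, 0.41, 0.10, 0.16, -0.08 and -0.33, so the likeness lay between the groups and little of it between replicates. CYP1A2 correlated at 0.35 with TIPARP, 0.43 with AHRR, 0.43 with CYP1B1 and 0.18 with ABCG2, and ALDH3A1 with these 4 genes between -0.05 and 0.06. The arrays share their group structure, so these values describe the 18 arrays and carry no test.

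**Figure D4:**
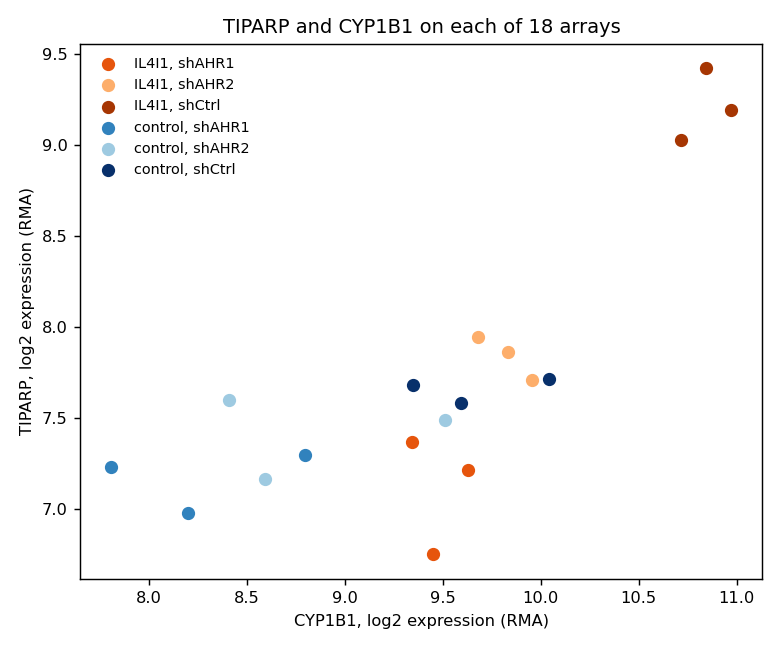
TIPARP against CYP1B1 (log2 expression, RMA) on each of 18 arrays, coloured by group. IL4I1 with shCtrl is high in both; IL4I1 with shAHR1 lies right of control vector with shAHR1 (higher CYP1B1) at a like height (TIPARP).

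The genes most like each member over the 18 arrays were named among genes whose highest group mean reached the median of all probe sets. For TIPARP they were ADAMTS6 (r = 0.96), CLMP (0.93) and SLC16A6 (0.88), and for CYP1B1 they were SLC16A6 (0.94), TMEM119 (0.93) and PDIA5 (0.92). SLC16A6, of the monocarboxylate transporter family, averaged 7.56, 8.27 and 10.66 in IL4I1 cells with shAHR1, shAHR2 and shCtrl, against 6.26, 6.22 and 8.32 in control vector cells. ADAMTS6, a secreted metalloprotease, averaged 6.48, 7.05 and 7.92 in IL4I1 cells, against 6.52, 6.65 and 6.82 in control vector cells, which is the TIPARP order at a smaller scale. For AHRR the 3 genes were IL1RN, the interleukin-1 receptor antagonist (0.92), LACC1 (0.92) and ITGAX (0.91), and for ABCG2 they were ADAM12 (0.89), RORA (0.88) and PALS1 (0.87). The neighbours of CYP1A2 (DCUN1D1, FAM177A1 and DHRS4, 0.76 to 0.79) and ALDH3A1 (ANKRD65, CAV2 and KLHDC8A, 0.73 to 0.76) had lower r. With group means taken out, r was 0.70 to 0.80 for the CYP1A2 neighbours and 0.70 to 0.86 for the ALDH3A1 neighbours. For the neighbours of the other members it was then 0.10 to 0.74.

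Other genes of the pathway were counted from lists named for their roles. Of 14 genes of the AHR complex and its coactivators, none was called with IL4I1 in shCtrl cells, and each hairpin comparison called AHR alone. ARNT, the partner of AHR, lay between 9.05 and 9.30 as group means in all 6 groups. Of 16 measured genes of the bHLH-PAS family, which AHR belongs to, NPAS2 rose with IL4I1 in shCtrl cells (0.60 ± 0.15, adjusted p = 0.034). There 2.02% of all genes were called higher. NPAS2 did not pass without replicate 2 of control vector with shCtrl (0.59 ± 0.17, adjusted p = 0.11).

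Of 22 other genes known to be AHR-induced in some tissue, 5 rose with IL4I1 in shCtrl cells and none fell, where 2.02% of all genes were called higher and 2.56% lower. The list median was 0.54 against 0.02 for all genes. They were MMP1, a collagenase (2.08 ± 0.35, adjusted p = 0.0036), PTGS2, the inducible cyclooxygenase (1.94 ± 0.43, adjusted p = 0.019), the neutrophil chemokine CXCL8 (1.57 ± 0.36, adjusted p = 0.023), the secreted glycoprotein STC2 (1.37 ± 0.22, adjusted p = 0.0027) and the EGF-family ligand EREG (1.01 ± 0.18, adjusted p = 0.0062). Without replicate 2 of control vector with shCtrl, MMP1 (adjusted p = 0.021), STC2 (adjusted p = 0.017) and EREG (adjusted p = 0.034) kept their call, and PTGS2 (1.86 ± 0.50, adjusted p = 0.078) and CXCL8 (1.53 ± 0.42, adjusted p = 0.087) did not. In IL4I1 cells shAHR1 lowered 4 of the 22, where 0.573% of all genes were called lower: IL1B by 2.06 ± 0.35 (adjusted p = 0.0071), PTGS2 by 1.90 ± 0.43 (adjusted p = 0.038), CXCL8 by 1.76 ± 0.36 (adjusted p = 0.021) and EREG by 0.88 ± 0.18 (adjusted p = 0.023). With shAHR2 EREG was the single gene of the list called, at -1.34 ± 0.18 in IL4I1 cells (adjusted p = 0.0018) and -1.41 ± 0.18 in control vector cells (adjusted p = 0.0028), where 0.489% and 0.264% of all genes were called lower. The second held without replicate 2 of control vector with shCtrl (adjusted p = 0.01). With IL4I1, EREG was also called higher under shAHR2, where 0.335% of all genes were. Against control vector with shCtrl, MMP1, STC2 and NQO1 were called higher with IL4I1 and either AHR hairpin, where 2.41% (shAHR1) and 2.16% (shAHR2) of all genes were. MMP1 was higher by 1.40 with shAHR1 and by 2.56 with shAHR2. Without that replicate, MMP1 and STC2 kept the call with shAHR2, and the other calls ended.

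NQO1, the quinone reductase shared by the AHR and NRF2 pathways, was higher with IL4I1 by 0.98 ± 0.20 under shAHR1 (adjusted p = 0.03) and by 0.95 ± 0.20 under shAHR2 (adjusted p = 0.046), and the difference in shCtrl cells was 0.72 ± 0.20 (adjusted p = 0.054). NFE2L2, which encodes NRF2, was higher with IL4I1 under shAHR1 (0.63 ± 0.15, adjusted p = 0.046). HMOX1, the haem oxygenase listed with the P450 partners, was higher under shAHR1 (1.61 ± 0.31, adjusted p = 0.02) and under shCtrl (1.70 ± 0.31, adjusted p = 0.006, and 0.034 without replicate 2 of control vector with shCtrl). All 3 of these, and also AHRR and CYP1B1, were thus called higher with IL4I1 under shAHR1, where 0.56% of all genes were. NFE2L2 was not called under shAHR2 or shCtrl, and HMOX1 was not called under shAHR2. The AHRR and CYP1B1 calls under shAHR1 each held in 1 of 6 fits that left out an array.

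The families of the members were counted likewise. Of 17 measured ADP-ribosyltransferases and relatives other than TIPARP, PARP1 was lower with IL4I1 in shCtrl cells (-0.83 ± 0.18, adjusted p = 0.015), where 2.56% of all genes were lower, and none was higher. Of 22 ABC exporters and SLCO carriers other than ABCG2, ABCC4 was lower in shCtrl cells (-0.51 ± 0.14, adjusted p = 0.044), but not without replicate 2 of control vector with shCtrl (-0.48 ± 0.15, adjusted p = 0.14). ABCC2, an apical conjugate exporter of the same list, was higher with IL4I1 under shAHR1 (1.04 ± 0.24, adjusted p = 0.041) and under shAHR2 (1.41 ± 0.24, adjusted p = 0.013). Of 15 aldehyde dehydrogenases other than ALDH3A1, ALDH1A3, which makes retinoic acid, was higher with IL4I1 under shAHR2 (1.37 ± 0.24, adjusted p = 0.015) and under shCtrl (1.98 ± 0.24, adjusted p = 0.00042), and lower with shAHR1 in IL4I1 cells (-1.72 ± 0.24, adjusted p = 0.0016). Of all genes, 0.56%, 0.335% and 2.02% were called higher with IL4I1 under shAHR1, shAHR2 and shCtrl. With shAHR1 in IL4I1 cells, 0.573% were called lower. ABCC2 was not called with IL4I1 in shCtrl cells. PARP1 (adjusted p = 0.0093) and ALDH1A3 in shCtrl cells (adjusted p = 0.0033) kept their call without replicate 2 of control vector with shCtrl. None of 21 conjugation enzymes was called by limma with IL4I1 in shCtrl cells, where 4.58% of all genes were called in either direction.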

How the data were processed

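The authors deposited log2 expression values, made with oligo and RMA per the submitters' processing notes. RMA corrects background, quantile-normalizes arrays and summarises the probes of a set. Software versions and annotation are not stated in the labels, and the log2 scale was read from the values (1.11 to 13.44). Quantile normalization removes a shift shared by most genes. Of 18913 probe sets, 15598 had 1 gene symbol, 870 had several and 2445 were unlisted in the annotation used; 1173 symbols were updated through RefSeq. Genes with several sets (66) kept the brightest, leaving 15529 genes. Groups came from the sample labels. All 18 arrays entered a single limma 3.58.1 fit (R 4.3.3, lmFit, eBayes, a mean per group), with 14 comparisons and Benjamini-Hochberg adjustment over all genes, called at 0.05 and checked on simulated data. With 3 arrays against 3 an exact permutation p cannot go below 0.1. Intervals are 95%. Precision is limited by 3 arrays a group.

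The members and lists were chosen with earlier results of these data known. Genes named beside the 6 members were AHR and IL4I1, up to 4 genes with the lowest adjusted p from each list for the comparison described, and the 3 genes with the highest Pearson r to each member; list genes beyond these were chosen after their values were seen. The alternatives tried were eBayes with trend and robust settings, the groups compared fitted alone, a replicate block, array weights, dim genes left out, the mean of a gene's probe sets, all probe sets, median centring and leaving out each array. Marker lists of glioma, epithelial, leukocyte and hepatocyte cells were read as a check of the line. Among 6 epithelial and 4 hepatocyte markers, SERPINA1 was the brightest (7.27 to 9.67), and ALB lay between 5.51 and 6.91.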

Additional observations from a re-analysis of the deposited data

Results flagged for a closer look

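TIPARP drew attention because its IL4I1 change differed between hairpins when that difference itself was tested. The term for the mean of both AHR hairpins was -1.3729 on the log2 scale (limma, adjusted p = 0.048). That call held in 3 of 18 fits that left out an array. Neither hairpin passed singly (limma, adjusted p = 0.077 for shAHR1 and 0.64 for shAHR2). IL4I1 changed TIPARP by -0.06 under shAHR1 and by 0.42 under shAHR2, against 1.55 under shCtrl. The other genes called in this term, chosen for mention after their values were seen, were the chemokine gene CCL2 (-2.26 ± 0.29, adjusted p = 0.013) and BPIFC (-2.95 ± 0.42, adjusted p = 0.021). Groups of 3 arrays are too small to screen for single far arrays.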

How the results depend on the processing

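Over 1286 refitted changes of single members, 72 lost a call, 9 gained one and no called change turned its sign; 57 that were not called did, none larger than 0.33. Fitting the compared groups alone leaves fewer residual degrees of freedom and estimates the spread anew. In these fits the members called for IL4I1 were 0 under shAHR1 (main 2), 0 under shAHR2 (1) and 1 under shCtrl (3). They were 2 for shAHR1 in IL4I1 cells (4) and 0 for shAHR1 in control vector cells (3). For IL4I1 with shAHR2 against control vector with shCtrl they were 0 (1). Array weights gave 2 for IL4I1 under shAHR2 and 0 for the mean interaction (main 1), which was also 0 with all probe sets tested. For shAHR1 in control vector cells (main 3) array weights gave 2, losing CYP1B1 (adjusted p = 0.08), and trend and robust settings gave 2, losing ABCG2 (adjusted p = 0.063). The shAHR1 interaction gave 1 with trend and robust settings and 1 with dim genes left out (main 0). IL4I1 with shAHR2 against control vector with shCtrl gave 0 under both of these; ABCG2 and ALDH3A1 are not among the genes tested when dim genes are left out. Apart from the genes not tested when dim genes are left out, the cause of these shifts was not tested.

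Leaving out 1 array at a time gave between 0 and 1 members called for IL4I1 under shAHR1, 0 and 2 under shAHR2, and 1 and 3 under shCtrl. It gave 3 and 4 for shAHR1 in IL4I1 cells, 2 throughout for shAHR2 in IL4I1 cells, 1 and 2 for shAHR1 in control vector cells, 0 and 1 for IL4I1 with either AHR hairpin against control vector with shCtrl, and 0 and 1 for the mean interaction. Counts for shAHR2 in control vector cells, for hairpin against hairpin and for the shAHR2 interaction were 0 in every setting.

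The replicate numbers were not taken as pairs: same-numbered arrays correlated between -0.13 and 0.32, with all over 0.1 in 1 of 15 pairs of groups, though 13 of 18 arrays were closest to their own number. The replicate block gave 3 members for shAHR2 in IL4I1 cells (main 2), adding CYP1B1 (adjusted p = 0.046), and changed no other count. CYP1B1 was also added there by array weights (adjusted p = 0.041), trend and robust settings and dim genes left out. Arrays give no read depth: ABCG2 and ALDH3A1 lay below the median of all probe sets, where changes can be compressed, and 3 arrays a group limit what could be called.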

Other observations

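Equal log2 changes are unequal gains in signal, so the likeness of the CYP1B1 response across hairpins depends on the scale. This scale was added after the values were seen and carries no test. On the antilog scale CYP1B1 gained 392 ± 77.2 signal units with IL4I1 under shAHR1 and 423 ± 133 under shAHR2, against 1020 ± 152 under shCtrl (standard error of the difference of means, n = 3 each). AHRR gained 60.1 ± 9.01 under shAHR1 and 95.9 ± 12.6 under shAHR2, against 119 ± 36.6 under shCtrl. TIPARP gained -4.35 ± 19.5 under shAHR1 and 57.3 ± 18.5 under shAHR2, against 395 ± 48.3 under shCtrl. The fold changes of CYP1B1 over the same groups were 2.30, 1.98 and 2.27.

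The drug-handling lists were also counted for IL4I1 with an AHR hairpin against control vector with shCtrl, where 4.53% (shAHR1) and 3.35% (shAHR2) of all genes were called in either direction. With shAHR1, 1 of 21 conjugation enzymes was higher (AKR1C3, a ketosteroid reductase) and 2 were lower (CBR3 and UGT8), and of 22 exporters and carriers 1 was higher (ABCC2) and 1 lower (SLCO4A1). With shAHR2, 1 conjugation enzyme (AKR1C3) and 2 exporters (ABCC2 and ABCB4) were higher and none was lower. ABCC2 was higher by 1.22 ± 0.24 with shAHR1 (adjusted p = 0.009) and by 1.21 ± 0.24 with shAHR2 (adjusted p = 0.0092). Without replicate 2 of control vector with shCtrl, ABCC2 kept both calls (adjusted p = 0.0078 and 0.0086), and the others named here kept none, with adjusted p between 0.074 (AKR1C3 with shAHR2) and 0.16 (SLCO4A1). Both comparisons share the control vector shCtrl arrays.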
